A study of Homo sapiens with 12 samples.

Results

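The transcriptome of R1 cells was compared with that of HEK293T cells, the line R1 was derived from, after 12 h in methionine-containing (+Met) medium. The comparison used 6 of the 12 libraries of the series, 3 of R1 and 3 of HEK293T, and the deposited count table lists 23500 Ensembl genes. HEK293T is a human embryonic kidney line that carries adenoviral E1 genes and the SV40 large T antigen, and it depends on methionine for proliferation. R1 (293Tres-R1) is a methionine-independent derivative of HEK293T that proliferates when homocysteine takes the place of methionine. Both lines were grown in the same base medium and shifted to +Met medium for the same time, so the comparison gives the baseline difference of the derivative from its parent where methionine is supplied. The other 6 libraries, 3 of each line after 12 h in -Met+Hcy medium, in which homocysteine replaces methionine, were used only to look up the genes found here. The series holds 1 derived line, so what belongs to this clone and what goes with growth without methionine cannot be told apart. R1 is named in the titles of its libraries while their cell line field reads HEK293T, and grouping was by title.

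Methionine is the precursor of S-adenosylmethionine (SAM), the methyl donor for DNA, RNA, lipid and protein methylation. The methyl group given up in these reactions leaves homocysteine, which methionine synthase returns to methionine with folate and cobalamin. Many tumor and transformed cells do not proliferate on homocysteine although they carry this pathway, a trait known as methionine dependence. Protein phosphatase 2A (PP2A) carries such a methyl group on its catalytic subunit, added by LCMT1 and removed by PPME1.

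Total counts ran from 14599045 to 16337507 in the HEK293T libraries and from 12664158 to 18408528 in the R1 libraries. The first principal component of the 500 most variable genes held 72.5% of the variance and separated the lines. R1 library 2 stood apart from the other R1 libraries. The chi-square per gene between it and R1 libraries 1 and 3 was 75.6 and 94.6, against 7.37 between libraries 1 and 3 and 15.3 to 27.9 between HEK293T libraries. The difference between the lines rose with transcript length (Spearman's rho = 0.30 across 11009 genes) and with GC content (rho = 0.22). Differences of single libraries from the mean of the other 2 libraries of their line had rho between -0.45 and 0.54. No library repeated another within counting noise. Of 12 markers of embryonic kidney, 8 could be tested, and the summed level of the list ran from 68.1 to 73.8 CPM (counts scaled to library size) in HEK293T and from 94.6 to 113 CPM in R1. Markers of some other cell types were not low. The 8 neural and neurofilament markers summed to 99.4 to 125 CPM in HEK293T and 146 to 189 CPM in R1. ENO2 rose (6.58 ± 1.15 and 72.9 ± 6.32 CPM), while NEFM was called lower (33.0 ± 9.39 and 11.9 ± 4.26 CPM). Of the 7 tested, 3 had a positive and 4 a negative log2 fold change (median -0.04). The 7 fibroblast markers summed to 30.45 to 36.5 and 47.6 to 66.3 CPM, with COL1A1 called higher (10.4 ± 1.82 and 28.0 ± 5.82 CPM). Markers of blood, endothelium and breast carcinoma epithelium were low in both lines. Summed levels were 0.30 to 0.64 CPM in HEK293T and 0.69 to 1.07 CPM in R1 for 5 blood markers, and 0.21 to 0.30 and 0.80 to 1.33 CPM for 4 endothelial markers, with PTPRC, PECAM1 and CDH5 under the minimum count for testing. The 10 markers of breast carcinoma epithelium summed to 0.64 to 0.96 CPM in HEK293T and 2.86 to 3.27 CPM in R1. Of these 10, 2 could be tested, and the 2 were called higher in R1 (log2 fold change 1.74 and 2.26). Of the endothelial markers 2 could be tested, and 1 was called higher.

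Of the 16201 genes tested, 1503 (9.28%) were called higher in R1 and 829 (5.12%) were called lower, where a call asked for more than 1 log2 unit in either direction and an adjusted p below 0.05 by edgeR. The median log2 fold change over all genes tested was 0.05. The R1 and HEK293T libraries did not overlap for 45.0% of the genes tested. Counted with 1 entry per symbol, 1428 genes were higher and 725 lower. Without R1 library 2, 1814 genes were called higher and 1381 lower. The direction of these counts depends on scaling: with library totals alone in place of TMM the median over all genes moved to 0.38, and 2617 genes were called higher and 372 lower. Values below are TMM-scaled CPM as mean ± SD of 3 libraries, and log2 fold changes are given ± SE.

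**Figure D1:**
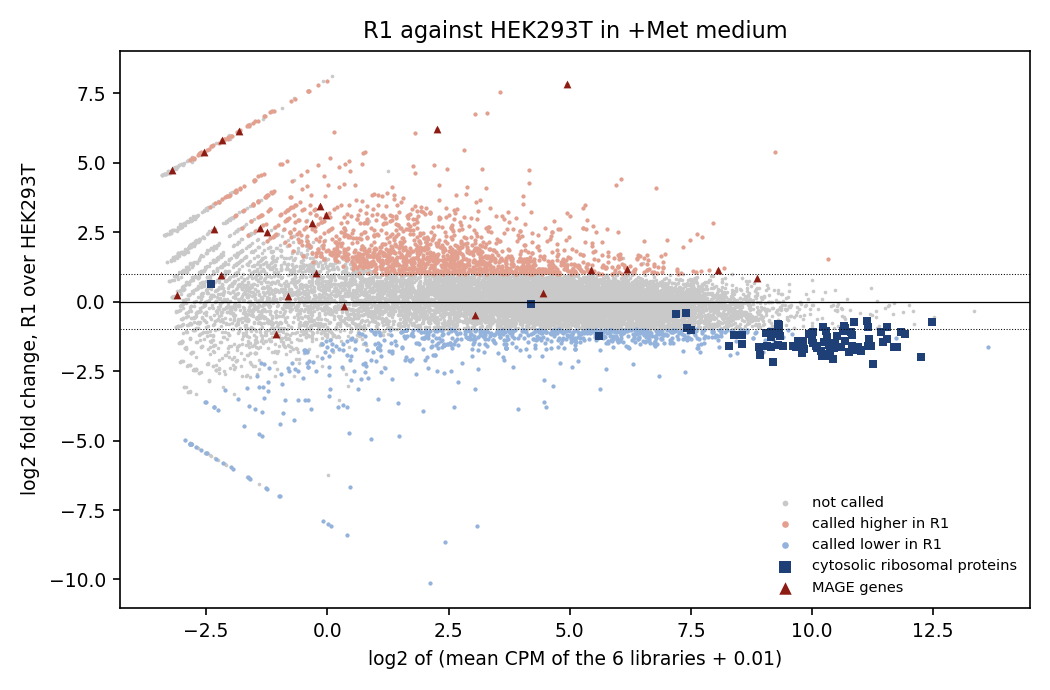
Log2 fold change of R1 over HEK293T in +Met medium (y axis) against the log2 mean CPM of the 6 libraries (x axis) for every gene tested, with the calling limits of -1 and 1 dotted. Genes called higher and lower are coloured, MAGE genes are triangles and cytosolic ribosomal protein genes are squares, and the latter lie at high expression with 68 of 84 called lower in R1.

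A group of genes was silent in HEK293T and expressed in R1. Genes were counted as switched on when every HEK293T library had at most 3 counts, the mean in R1 was at least 1 CPM and the gene was called higher, and 52 entries under 48 symbols met this. Their levels in R1 were from 4.65 to 109 times the level that 3 counts would give in HEK293T. With at least 5 CPM asked of R1, 5 remained: TMEM88, OLFML1, RASL10B, MAGEA12 and FGD5. TMEM88, a membrane protein that inhibits Wnt signalling through Dishevelled, was at 23.9, 28.1 and 18.7 CPM in the R1 libraries and at 0.21, 0.15 and 0 CPM in the HEK293T libraries. This is at least 109-fold higher in R1. OLFML1, a secreted protein of the olfactomedin family, was at 15.9, 19.7 and 22.5 CPM in R1 and at 0.21, 0.07 and 0.21 CPM in HEK293T, at least 89.8-fold higher. RASL10B, a small GTPase of the Ras family, was at 18.3, 14.96 and 15.7 CPM in R1 and at 0.07, 0.22 and 0.14 CPM in HEK293T, at least 75.8-fold higher. In each of these 3 genes all R1 libraries lay far above all HEK293T libraries, which the rule for switched-on genes largely fixes. FGD5, an exchange factor for CDC42 known from endothelium, had 6.90 ± 1.76 CPM in R1 and was at least 32.02-fold higher. The cadherin CDH18 (3.26 ± 0.91 CPM), the skeletal myosin MYH13 (3.34 ± 0.39 CPM) and the pluripotency-associated gene DPPA2 (3.15 ± 1.51 CPM) followed, at least 15.1-fold, 15.5-fold and 14.6-fold higher. Of the 48 symbols, 25 also had every R1 library above every HEK293T library in -Met+Hcy medium, which 14.2% of all genes tested had, and 9 had at most 3 counts in every HEK293T library there. The count of 25 includes R1 library 3 of that medium, which had counts in 13936 genes, against 16772 to 17065 in the others.

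Other genes with large differences were above that limit in at least 1 HEK293T library. MAGEC2, a cancer-testis antigen that binds the ubiquitin ligase TRIM28, was at 0.14, 0.37 and 0.28 CPM in HEK293T and at 53.2, 84.4 and 46.0 CPM in R1, the largest fold change among genes that met the naming rule in this direction (log2 fold change 7.82 ± 0.38, adjusted p = 5.75e-06 by edgeR). GPC3, a cell surface heparan sulfate proteoglycan of the fetal kidney and liver, rose from 28.4 ± 4.97 CPM in HEK293T to 1184 ± 153 CPM in R1. This was a 41.7-fold difference (log2 fold change 5.38 ± 0.23, adjusted p = 5.75e-06), and GPC3 was among the 5 genes with the largest gain in CPM. The lipid carrier APOE was at 0.64 ± 0.37 and 17.7 ± 2.75 CPM (27.1-fold). The cardiac potassium channel KCNH2 was at 0.38 ± 0.10 and 10.7 ± 2.06 CPM (27.4-fold). The retinal dehydrogenase ALDH1A1, which makes retinoic acid, was at 1.28 ± 0.64 and 34.6 ± 2.46 CPM (27.0-fold). The proteoglycan SRGN, the chemokine receptor CCR10 and the astrocytic membrane protein MLC1 were higher by log2 fold changes of 5.45 ± 0.59, 4.93 ± 0.53 and 4.88 ± 0.60. No R1 library overlapped a HEK293T library for these genes, which the naming rule required of all but ALDH1A1. Among all genes tested 45.0% had no overlap.

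**Figure D2:**
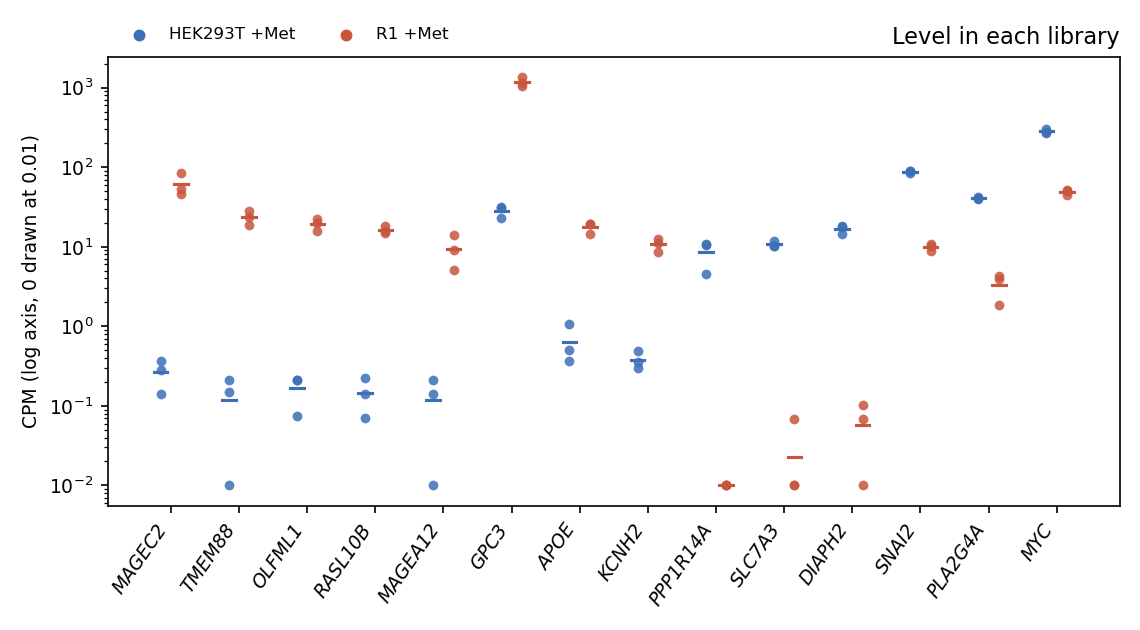
Level of 14 genes in each library, in TMM-scaled CPM on a log axis with 0 drawn at 0.01, with HEK293T in blue, R1 in red, 1 point per library and a bar at the mean of 3. The 8 genes on the left have every R1 library above every HEK293T library, and the 6 on the right the reverse, with PPP1R14A at 0 in all R1 libraries.

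Fewer genes were lost. With the same limits, 15 entries under 13 symbols were switched off in R1, at 5.90 to 99.3 times the level of 3 counts in HEK293T. Without R1 library 2 this became 25 entries and without R1 library 3 it became 23. DIAPH2, a formin that nucleates actin filaments, was at 14.7, 17.7 and 18.3 CPM in HEK293T and at 0.10, 0 and 0.07 CPM in R1, at least 99.3-fold lower. SLC7A3, a transporter of arginine and lysine, was at 10.2, 11.7 and 10.2 CPM in HEK293T and at 0, 0 and 0.07 CPM in R1, at least 63.0-fold lower. PPP1R14A, an inhibitor of myosin phosphatase, was at 10.8, 4.58 and 10.6 CPM in HEK293T, and no count was found in any R1 library, at least 50.9-fold lower. These were the 3 genes with at least 5 CPM in HEK293T. ZNF331, ZC3HAV1L, ARMCX2, ARMCX4 and FABP6, the ileal bile acid binding protein, were switched off from 1.85 to 2.72 CPM. Of the 13 symbols, 12 had every R1 library below every HEK293T library in -Met+Hcy medium, which 18.8% of all genes tested had, and 8 had at most 3 counts in every R1 library there. These counts include R1 library 3 of that medium, which had counts in fewer genes (13936, against 16772 to 17065). They are therefore not compared with those of the switched-on genes. Without that library 9 had at most 3 counts in every R1 library. The X chromosome held 4 of the 13 symbols switched off (30.8%) and 5 of the 48 switched on (10.4%), against 3.81% of the symbols tested.

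The upstream sequences of a pair of MAGE genes far higher in R1 and a pair of switched-off genes are shown. The reason is that promoters rich in CpG, the dinucleotide that DNA methyltransferases act on with SAM, and promoters poor in it are regulated differently. MAGEC2 did not meet the rule for switched-on genes. The 250 bases before the most upstream RefSeq start are given (GRCh38.p14, 5′ to 3′ on the gene's strand), in lower case with each CG in capitals.
MAGEC2, chrX:142205291-142205540, minus strand: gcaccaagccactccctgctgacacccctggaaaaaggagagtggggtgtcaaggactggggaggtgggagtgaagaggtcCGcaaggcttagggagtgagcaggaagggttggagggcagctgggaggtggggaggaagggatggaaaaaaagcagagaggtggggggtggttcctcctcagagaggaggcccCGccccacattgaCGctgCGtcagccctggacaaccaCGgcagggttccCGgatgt
MAGEA12, chrX:152733507-152733756, plus strand: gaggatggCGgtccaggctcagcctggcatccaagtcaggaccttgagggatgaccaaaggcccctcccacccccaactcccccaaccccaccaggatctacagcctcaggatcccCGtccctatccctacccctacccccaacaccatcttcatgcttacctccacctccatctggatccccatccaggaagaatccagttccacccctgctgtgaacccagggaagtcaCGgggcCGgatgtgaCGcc
PPP1R14A, chr19:38256375-38256624, minus strand: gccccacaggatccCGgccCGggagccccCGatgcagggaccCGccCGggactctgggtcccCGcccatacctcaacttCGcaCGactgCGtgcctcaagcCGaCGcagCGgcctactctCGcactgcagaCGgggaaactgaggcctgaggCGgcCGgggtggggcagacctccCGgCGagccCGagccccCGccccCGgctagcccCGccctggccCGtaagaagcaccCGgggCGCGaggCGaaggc
DIAPH2, chrX:96684592-96684841, plus strand: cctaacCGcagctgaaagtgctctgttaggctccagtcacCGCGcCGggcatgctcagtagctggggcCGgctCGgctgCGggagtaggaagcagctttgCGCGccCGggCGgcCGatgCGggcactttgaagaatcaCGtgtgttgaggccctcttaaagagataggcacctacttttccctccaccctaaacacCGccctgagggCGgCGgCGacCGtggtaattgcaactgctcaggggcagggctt
The windows of MAGEC2 and MAGEA12 held 6 and 5 CG, and those of PPP1R14A and DIAPH2 held 27 and 19. Over the 11775 of 14664 symbols tested that matched the RefSeq table, the median was 20. For the switched-on genes the median was 14.5 (34 of 48 matched), and for the switched-off genes it was 14 (10 of 13 matched). SLC7A3 was not matched. DNA methylation was not measured in these samples.

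MAGE genes, most of them on the X chromosome and silent outside the germline and tumors, held more higher than lower calls. Of 34 members 24 could be tested, and 13 (54.2%) were called higher and 0 lower, against 9.28% and 5.12% of all genes tested. The median log2 fold change of the 24 was 1.84, and 1.00 with members silent in one line set to their bound. Members silent in HEK293T, among them MAGEA12, MAGEB6 and MAGEL2, passed the minimum summed count through R1 and could be called higher but not lower. The share called is therefore not like that of a family expressed in both lines, and how many of the 13 passed this way was not counted. Without HEK293T library 1, 8 were called higher, and with glmTreat, an alternative test, 3. MAGEA12 was at 9.20, 13.96 and 5.08 CPM in R1 and at 0.14, 0 and 0.21 CPM in HEK293T, at least 43.7-fold higher, with no overlap between the lines. Outside MAGEC2 and MAGEA12 the members of the MAGEA, MAGEB and MAGEC groups that were called stayed under 2 CPM in R1. The broadly expressed type II members were higher by a smaller factor: MAGED2, which stabilizes salt transporters in the fetal kidney, was at 166 ± 6.94 and 370 ± 65.6 CPM (log2 fold change 1.16 ± 0.17, adjusted p = 0.00140 by edgeR), and MAGED4B at 44.5 ± 5.95 and 101 ± 8.28 CPM (1.18 ± 0.16, adjusted p = 0.000868). MAGED4B shares nearly its whole sequence with MAGED4, so reads could be split between them. In a list of 80 other cancer-testis genes on the X chromosome, made by symbol pattern, 5 were tested, and 0 were called higher and 1 lower. That list did not hold every such gene. The cancer-testis gene CSAG1, outside it, was switched on in R1 (0.072 ± 0.0018 and 2.29 ± 1.89 CPM, 4.86 ± 0.83 on the log2 scale).

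Cytosolic ribosomal protein genes were lower in R1. Of 84 cytosolic ribosomal protein genes tested, 68 (81.0%) were called lower and 0 higher, against 5.12% and 9.28% of all genes tested. The median log2 fold change of the 84 was -1.43. Their summed level was 176000, 142000 and 195000 CPM in the HEK293T libraries and 58300, 89700 and 49800 CPM in the R1 libraries. All R1 libraries were below all HEK293T libraries, with R1 library 2 nearest to them. RPS3A, a protein of the small subunit, was at 7583, 6009 and 9749 CPM in HEK293T and at 1458, 3437 and 937 CPM in R1 (log2 fold change -2.00 ± 0.43, adjusted p = 0.00792 by edgeR). RPS10 (-2.25 ± 0.33), RPS6, the S6 kinase substrate (-1.64 ± 0.36), and RPS4X (-1.63 ± 0.23) were lower too. The elongation factor EEF1A1, which brings aminoacyl-tRNA to the ribosome, had the largest loss in CPM, from 19340 ± 1675 to 6168 ± 1943 CPM (-1.65 ± 0.24, adjusted p = 0.00127). Its paralog EEF1A2, otherwise a gene of neurons and muscle, was higher, at 60.5 ± 8.99 CPM in HEK293T and 435 ± 72.5 CPM in R1 (2.85 ± 0.20, adjusted p = 3.05e-05). Of 34 aminoacyl-tRNA synthetases, which charge tRNAs, 1 was called lower and 0 higher (median -0.17). In -Met+Hcy medium without R1 library 3 of that medium the median of the ribosomal protein genes was -0.74.

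Transcript length and library moved with this result. Ribosomal protein transcripts are short, with a median length of 827 nt, and other genes with transcripts up to 1000 nt had a median log2 fold change of -0.49 (92 of 529 called lower), those from 1000 to 2000 nt -0.23, those from 2000 to 5000 nt 0.01 and those over 5000 nt 0.19. By library, relative to the HEK293T mean, the ribosomal protein genes with a mean log2 CPM over 2 had medians of -1.62, -0.92 and -1.82 in R1 and 0.05, -0.24 and 0.19 in HEK293T. The other genes up to 1000 nt had medians of -0.61, -0.15 and -0.75 in R1, and those over 5000 nt 0.26, -0.02 and 0.34. R1 library 2 lay within the HEK293T range in both classes (-0.22 to 0.15 and -0.11 to 0.14). After trends on GC content and on length were removed within libraries, an alternative chosen after seeing the data, 38 of the 84 genes were called lower and the median was -0.95. The part of RNA quality or library preparation in the result was not tested. Over all genes tested, 5.12% were called lower. Mitochondrial ribosomal proteins (15 of 78 lower, median -0.61), respiratory chain subunits encoded in the nucleus (4 of 37, -0.65) and proteasome subunits (5 of 35, -0.32) were lower in smaller shares than the cytosolic ribosomal proteins. These counts rested on single libraries, and became 34, 18 and 11 without R1 library 2, 7 mitochondrial ribosomal proteins without R1 library 3, and 0 respiratory chain and 2 proteasome subunits without HEK293T library 1. With library totals alone the proteasome median was 0.01.

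**Figure D3:**
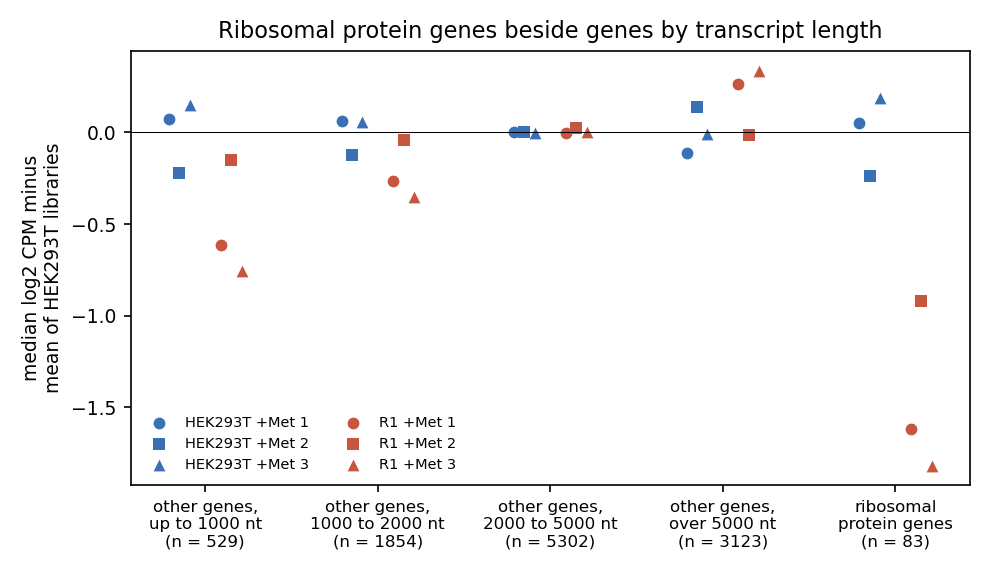
Median over genes of log2 CPM minus the mean of the HEK293T libraries (y axis) for cytosolic ribosomal protein genes and for other genes by transcript length, 1 symbol per library with HEK293T in blue and R1 in red. The ribosomal protein genes lie at -0.92 to -1.82 in R1, under the other genes of up to 1000 nt. R1 library 2 (square) is the R1 library nearest to HEK293T for the ribosomal protein genes. For the other genes of up to 1000 nt it lies within the HEK293T range.

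The enzymes of the methionine cycle were called in neither direction. Of 12 listed, 9 were tested, with a median log2 fold change of -0.03 and 0 called, and MAT2A, MAT2B and MTRR had an adjusted p under 0.05 by edgeR without reaching the limit on the fold change. MAT2A, the SAM synthetase of cells outside the liver, was at 282, 348 and 286 CPM in HEK293T and at 163, 179 and 150 CPM in R1 (log2 fold change -0.90 ± 0.16, adjusted p = 0.00351 by edgeR). Its levels did not overlap, and the difference was under the limit of 1. Its regulatory subunit MAT2B was at 197 ± 24.1 and 106 ± 41.1 CPM (-0.90 ± 0.25) and passed the limits without R1 library 2 or without HEK293T library 2. Methionine synthase, MTR, was at 62.7, 101 and 80.8 CPM in HEK293T and at 159, 87.9 and 169 CPM in R1 (0.77 ± 0.26, adjusted p = 0.0530). R1 library 2 lay within the range of HEK293T, and without it MTR was called higher. Its reductase MTRR was at 53.0 ± 4.48 and 33.9 ± 3.20 CPM (-0.65 ± 0.15, adjusted p = 0.0104), and AHCY, which removes S-adenosylhomocysteine, at 391 ± 42.1 and 296 ± 71.9 CPM (-0.40 ± 0.20, adjusted p = 0.160). BHMT was not among the genes tested. Of the salvage enzyme MTAP, 35.2 ± 3.40 and 24.0 ± 4.26 CPM were measured. In cobalamin handling 1 of 14 genes was higher, TCN2, which carries cobalamin into cells (0.29 ± 0.13 and 3.23 ± 0.31 CPM), and 1 was lower, MMADHC (-1.07 ± 0.23), whose call was lost without R1 library 1 or 3. Of 18 genes of methionine salvage and polyamines 3 (16.7%) were lower and 1 (5.56%) was higher, against 5.12% and 9.28% of all genes tested. AMD1, which makes decarboxylated SAM for polyamines, was at 547 ± 70.8 and 151 ± 68.3 CPM (-1.85 ± 0.29, adjusted p = 0.00176), and OAZ1, the ornithine decarboxylase antizyme, at 817 ± 117 and 329 ± 56.4 CPM. The polyamine oxidase PAOX was 10.2-fold higher (3.36 ± 0.24, adjusted p = 3.81e-05). The 3 lower genes lie on chromosome arms 6q (AMD1) and 19p (OAZ1 and MRI1). Of the genes of these arms with a mean log2 CPM over 2, 19.3% and 13.6% were called lower.

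Of 19 PP2A subunit genes 2 (10.5%) were called higher and 0 lower (median 0.03), near the 9.28% of all genes tested that were higher. They were the regulatory subunits PPP2R2C, at 0.50 ± 0.35 and 3.20 ± 0.50 CPM (2.65 ± 0.48, adjusted p = 0.00368 by edgeR), and PPP2R5B, at 11.8 ± 2.36 and 24.9 ± 3.20 CPM (1.08 ± 0.19, adjusted p = 0.00306). The PPP2R5B call was lost without HEK293T library 3 or R1 library 1. The catalytic subunits PPP2CA (178 ± 5.03 and 143 ± 4.78 CPM, log2 fold change -0.31 ± 0.14) and PPP2CB (46.5 ± 2.55 and 47.3 ± 5.86 CPM, 0.02 ± 0.15) were not called, nor were the scaffold PPP2R1A (-0.47 ± 0.16) and the subunit PPP2R2A (-0.40 ± 0.18). The methyltransferase LCMT1 was at 43.2 ± 1.81 and 36.7 ± 6.80 CPM (-0.23 ± 0.16, adjusted p = 0.303). The methylesterase PPME1 was at 36.3, 37.8 and 34.5 CPM in HEK293T and at 58.0, 45.4 and 56.9 CPM in R1 (0.56 ± 0.15, adjusted p = 0.0212), with no overlap and under the limit of 1. Among 16 regulators of PP2A methylation and activity 1 was called, IGBP1, the α4 protein that binds free catalytic subunits, which was lower at 58.1, 54.0 and 58.5 CPM in HEK293T and 21.5, 27.3 and 16.2 CPM in R1 (-1.39 ± 0.19, adjusted p = 0.00104). Of 64 methyltransferase and demethylase genes 2 were higher and 2 lower. DNMT3A, a de novo DNA methyltransferase, was at 9.45 ± 0.27 and 22.8 ± 5.80 CPM (1.27 ± 0.21, adjusted p = 0.00221). PCMT1, which repairs damaged aspartyl residues, was lower (-1.57 ± 0.23), as was PRMT1, the main arginine methyltransferase (552 ± 67.5 and 259 ± 59.97 CPM, -1.09 ± 0.20), though without R1 library 3 its call was lost. PRMT5 was at 380 ± 18.6 and 287 ± 12.7 CPM (-0.40 ± 0.15) and was not called.

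The amino acid response, in which eIF2 phosphorylation induces ATF4 and its targets, held more lower than higher calls in R1. Of 40 genes 8 were called lower and 1 higher (median -0.32, and 0.01 with library totals alone, where 3 were called lower). Among all genes tested 5.12% were called lower and 9.28% higher. ASNS, asparagine synthetase and an ATF4 target, was at 284, 330 and 314 CPM in HEK293T and at 111, 159 and 106 CPM in R1 (-1.31 ± 0.19, adjusted p = 0.00127 by edgeR). ATF3 was at 19.2 ± 1.76 and 7.46 ± 2.65 CPM (-1.35 ± 0.24, adjusted p = 0.00319). The cystine transporter SLC7A11 was at 12.0, 28.8 and 21.1 CPM in HEK293T and at 7.56, 7.43 and 6.80 CPM in R1 (-1.502 ± 0.28, adjusted p = 0.00426). For all 3 genes every R1 library was below every HEK293T library. ATF4 itself was at 1059 ± 82.0 and 760 ± 81.0 CPM (-0.48 ± 0.16, adjusted p = 0.0511), and CHAC1, a glutathione-degrading target, at 6.46 ± 1.24 and 3.77 ± 0.01 CPM (-0.77 ± 0.21, adjusted p = 0.0237). The exception was VLDLR, a lipoprotein receptor, which was higher (5.05 ± 0.43 and 13.8 ± 2.91 CPM, 1.44 ± 0.21). Of 30 amino acid transporters 6 were lower and 3 higher, and the share higher was near the 9.28% of all genes tested. SLC7A3 and SLC7A11 were lower, and SLC1A4, a transporter of alanine and serine, was 5.05-fold higher (2.56 ± 0.39 and 12.9 ± 1.20 CPM), as was the glutamate transporter SLC1A1 (1.66 ± 0.26 on the log2 scale). The number higher became 5 without R1 library 2. The large neutral amino acid transporter SLC7A5 was at 289 ± 5.16 and 145 ± 26.6 CPM (-0.99 ± 0.17, adjusted p = 0.00307), just inside the limit of 1, and passed it with several libraries left out in turn. SLC43A2 was at 3.81 ± 0.62 and 5.38 ± 1.57 CPM and was not called.

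Over all genes tested, 9.28% were called higher and 5.12% lower. Transsulfuration and glutathione genes, which draw on homocysteine for cysteine, had 5 of 32 members (15.6%) lower and 0 higher (median -0.29, and 0.04 with library totals alone). Beside SLC7A11 they included MGST1 (122 ± 6.47 and 50.8 ± 10.04 CPM, -1.27 ± 0.17) and the lipid peroxidase GPX4 (337 ± 64.9 and 158 ± 25.5 CPM, -1.10 ± 0.20). Without HEK293T library 1 the number was 3, and with the trends on GC content and length removed it was 1. CBS was at 270 ± 32.8 and 263 ± 19.3 CPM (-0.04 ± 0.16) and CTH at 20.8 ± 1.76 and 17.9 ± 0.86 CPM (-0.22 ± 0.15), and neither was called. In serine synthesis and folate metabolism 3 of 26 genes (11.5%) were higher and 2 (7.69%) lower, both near the shares of all genes. GLDC of the glycine cleavage system was higher (38.0 ± 2.53 and 83.8 ± 9.11 CPM, 1.14 ± 0.15). MTHFD1L was lower, at 169 ± 8.64 and 66.5 ± 10.1 CPM (-1.35 ± 0.16). Of the NRF2 target and thioredoxin genes 5 of 24 (20.8%) were lower and 2 (8.33%) higher: NQO1 was higher (2.25 ± 0.24) and HMOX1 lower (-1.70 ± 0.17). In sterol and isoprenoid synthesis 4 of 27 genes (14.8%) were higher and 0 lower (median 0.44). TM7SF2, a sterol reductase, was at 6.6, 6.21 and 7.56 CPM in HEK293T and at 76.3, 68.1 and 67.9 CPM in R1 (3.38 ± 0.16, adjusted p = 5.75e-06 by edgeR), and HMGCS1, which makes HMG-CoA in the mevalonate pathway, was 2.70-fold higher (66 ± 7.12 and 177 ± 18.1 CPM). Without R1 library 1 the number higher was 2. Of 31 genes of fatty acid synthesis and uptake 6 (19.4%) were higher and 2 (6.45%) lower, with SCD5 at 2.56 ± 1.12 and 21.9 ± 3.72 CPM.

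Several families of matrix, adhesion and guidance genes held more higher than lower calls in R1, where 9.28% of all genes tested were higher. Their transcripts are long, with median lengths of 6530 nt for collagens, 7340 nt for laminins and 4860 nt for semaphorins and plexins, and genes over 5000 nt had a median of 0.19. With the trends on GC content and length removed, collagens had 9 higher and 1 lower (median 0.71), laminins 4 higher and 1 lower (0.32), and semaphorins and plexins 7 higher and 0 lower (0.44). The summed level of the laminins was 411 to 498 CPM in HEK293T and 974, 630 and 973 CPM in R1, with R1 library 2 nearest to HEK293T. Of 35 collagens 11 were higher and 1 lower (median 0.96). COL2A1, the cartilage collagen, was at 8.23, 5.25 and 5.72 CPM in HEK293T and at 148, 77.9 and 125 CPM in R1 (4.19 ± 0.29, adjusted p = 2.84e-05 by edgeR). COL5A2 was at 2.20 ± 1.55 and 30.7 ± 8.14 CPM. All R1 libraries were above all HEK293T libraries for COL2A1. Of 12 laminins 5 were higher and 0 lower, with LAMA4 (2.80 ± 0.26 on the log2 scale) and LAMA5 (33.3 ± 2.93 and 151 ± 43.6 CPM, 2.18 ± 0.23) in front. Of 24 genes taken by integrin symbol pattern 9 were higher and 3 lower. The lower ones included ITGB3BP, which matches the pattern but is an integrin-binding protein and not an integrin. ITGA8, which the metanephric mesenchyme uses in kidney development, was at 1.62 ± 0.38 and 15.6 ± 0.60 CPM (3.26 ± 0.21), and ITGB7, of lymphocytes, at 3.12 ± 0.40 and 0.45 ± 0.23 CPM (-2.76 ± 0.41). Without HEK293T library 1 the number of genes of this pattern called lower was 1. Semaphorins and plexins, the axon guidance ligands and receptors, had 7 of 21 higher and 0 lower, and the fold change of each of the 21 was positive. Wnt ligands and frizzled receptors had 12 of 25 higher and 0 lower (median 1.44, and 1.19 with silent members at their bound). WNT5A, a ligand of the noncanonical pathway, was at 3.55, 4.21 and 4.88 CPM in HEK293T and at 19.8, 18.1 and 20.2 CPM in R1 (2.20 ± 0.18, adjusted p = 7.93e-05), and its receptor FZD2 at 6.99 ± 0.90 and 24.7 ± 2.06 CPM. TGFB1 was 9.09-fold higher (6.14 ± 1.05 and 55.8 ± 5.70 CPM) and BMP2 4.32-fold lower (20.4 ± 1.67 and 4.69 ± 0.43 CPM). Potassium channels had 12 of 48 higher and 5 lower, and sodium and calcium channels 9 of 33 higher and 0 lower, with CACNA1H at 42.6 ± 1.39 and 133 ± 27.2 CPM. KCNK2, a mechanically gated potassium channel, was lower (3.802 ± 1.07 and 0.31 ± 0.21 CPM, -3.51 ± 0.49).

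**Figure D4:**
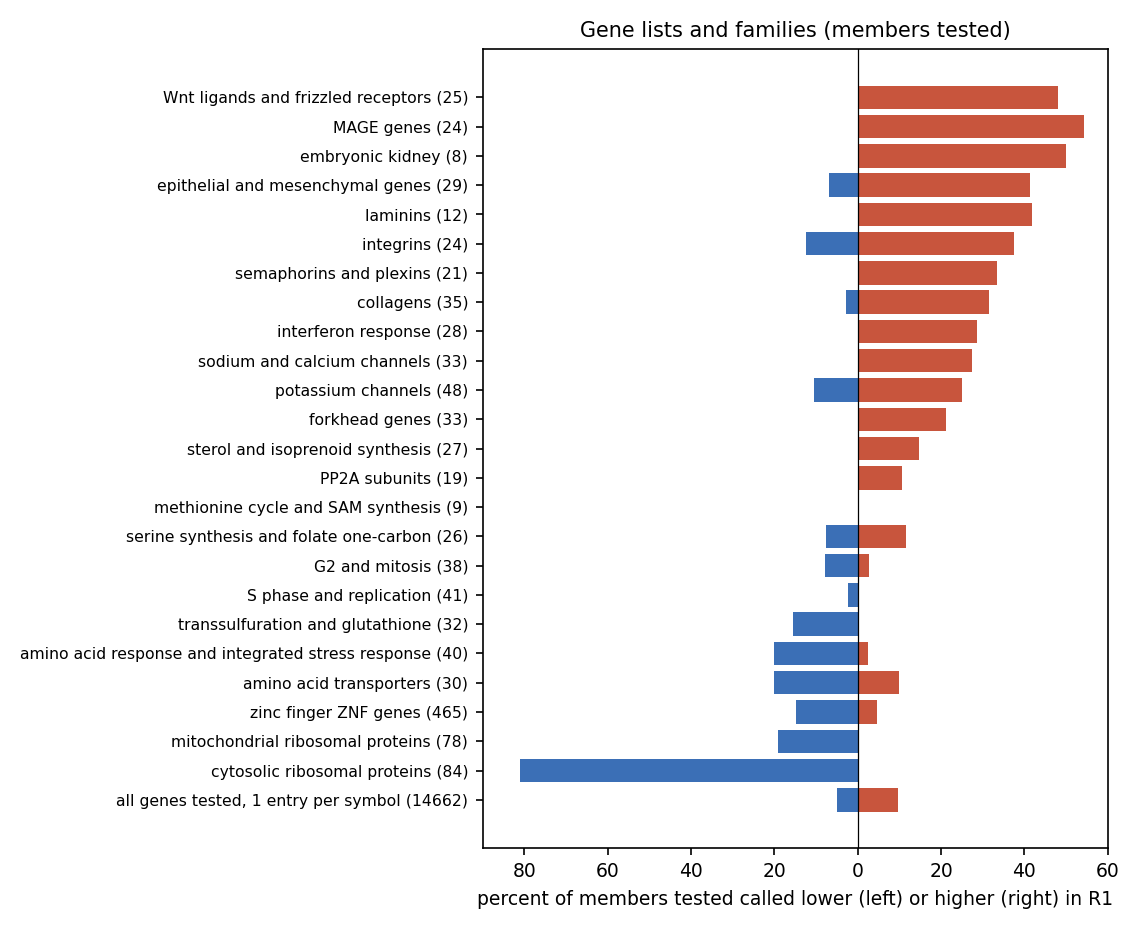
Percent of the members tested that were called higher (red, to the right) or lower (blue, to the left) in R1 for 24 gene lists and families and for all genes, with the number of members tested in parentheses. Cytosolic ribosomal proteins have 81.0% called lower, MAGE genes 54.2% called higher, and the methionine cycle no call in either direction.

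Regulators of cell identity and growth differed in both directions. Over all genes tested, 9.28% were called higher and 5.12% lower. MYC, a driver of growth and ribosome synthesis, was at 305, 266 and 281 CPM in HEK293T and at 49.9, 51.3 and 45.3 CPM in R1 (-2.54 ± 0.15, adjusted p = 1.65e-05 by edgeR), 5.82-fold lower with little spread in either line. SNAI2, a repressor of epithelial genes, was at 90.1, 85.1 and 89.5 CPM in HEK293T and at 8.74, 10.8 and 10.4 CPM in R1 (-3.14 ± 0.16, adjusted p = 6.41e-06). Among 29 epithelial and mesenchymal genes 12 were higher and 2 lower, and the members that were higher came from both sides: the tight junction gene CLDN1 (0.19 ± 0.22 and 2.21 ± 1.48 CPM), and MMP2, a matrix protease (1.65 ± 0.49 and 10.3 ± 1.10 CPM). MMP14 was lower (-2.78 ± 0.49). The immediate early genes EGR1 and FOS were called higher with a wide spread in R1: EGR1 was at 22.02, 3.87 and 24.8 CPM and FOS at 7.20, 0.75 and 5.77 CPM in R1, against 2.44 to 3.48 and 0.64 to 1.55 CPM in HEK293T, and R1 library 2 lay within the HEK293T range for FOS, whose call was lost when any library other than R1 library 2 was left out. Of 29 AP-1, EGR and MYC genes 5 were higher, and 2 without HEK293T library 3. IRS4, an insulin receptor substrate that HEK293T expresses strongly, was at 662 ± 87.5 and 1909 ± 413 CPM (1.53 ± 0.21), and the small heat shock protein HSPB1 at 61.2 ± 13.8 and 333 ± 18.6 CPM (2.45 ± 0.20). Of the 8 embryonic kidney genes tested 4 were higher and 0 lower, PAX2 (0.64, 0.22 and 0.71 CPM in HEK293T and 4.96, 4.97 and 5.15 CPM in R1, 3.24 ± 0.37) and LHX1 (2.39 ± 0.34), both needed to form the nephron, and EYA1 (1.14 ± 0.20) and GATA3 (1.02 ± 0.17), and the call of GATA3 was lost without HEK293T library 2 or 3 or R1 library 1 or 3. Forkhead factors had 7 of 33 higher and 0 lower, with FOXD3 at 3.41 ± 0.76 and 15 ± 0.46 CPM. Interferon response genes had 8 of 28 higher and 0 lower (median 0.75, and 0.57 with silent members at their bound), with IFITM3 at 0.77 ± 0.55 and 6.57 ± 1.12 CPM and OAS3 at 2.67 ± 0.71 and 10.2 ± 2.77 CPM, and 5 without HEK293T library 1. Of 41 S phase genes 1 was lower and 0 higher, and of 38 mitosis genes 1 was higher and 3 lower. The 3 mitosis genes, CKS2, MAD2L1 and TTK, were not called without HEK293T library 3.

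Other genes with the largest losses were ADGRL3, a latrophilin receptor (5.40 ± 1.40 and 0.17 ± 0.29 CPM), HHIP, which binds and restrains Hedgehog ligands (7.41 ± 0.98 and 0.48 ± 0.33 CPM), BEX5 (28.6 ± 6.36 and 1.93 ± 0.90 CPM), PLA2G4A, the cytosolic phospholipase that releases arachidonic acid (41.2 ± 1.48 and 3.35 ± 1.32 CPM), ANXA1 (14.8 ± 3.82 and 1.65 ± 0.88 CPM) and TENM1 (44.9 ± 16.7 and 5.43 ± 2.58 CPM). The fold was 12.4 for PLA2G4A and 8.77 for ANXA1. Among chaperones, HSPA1B was called higher (4.23 ± 0.88) and HSPA1A lower (-2.53 ± 0.50), and as the 2 genes are nearly identical their reads could be split between them. TAP2 and VARS1, which have further entries on alternative haplotypes of chromosome 6, were lower (-1.14 ± 0.18 and -1.66 ± 0.15) and share reads with those entries, so both are uncertain, and the call of TAP2 was lost without R1 library 2.

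The difference varied by chromosome arm. Among genes with a mean log2 CPM over 2, the median log2 fold change by chromosome arm was lowest on 19q (-0.52, 371 genes), 19p (-0.47, 353 genes), 6q (-0.43, 259 genes), 6p (-0.29, 272 genes) and Xq (-0.29, 233 genes), and highest on 4p (0.42, 117 genes) and 7p (0.26, 182 genes). On 19q the R1 libraries lay at -0.47, -0.57 and -0.48 relative to the HEK293T mean, and on 4p at 0.40, 0.32 and 0.41. Single HEK293T libraries stayed between -0.13 and 0.18 relative to the other 2 on these 7 arms. These arms were chosen for their medians, so their separation was not tested. In all, the R1 libraries lay outside the HEK293T libraries on 15 of 41 arms. On 19q, 6q and 19p, 21.3%, 19.3% and 13.6% of these genes were called lower. The shares of gene lists called were set against all genes tested and not against the arms of their members. PCMT1 and MTHFD1L lie on 6q, GPX4 on 19p and PRMT1 on 19q. With library totals alone every arm shifted up with the median of all genes, and 6p and Xq came to 0.04, under the 0.38 of all genes. On chromosome 19, 62 of 225 ZNF zinc finger genes, which lie in clusters there, were called lower (median -0.73), against 7 of 240 ZNF genes on other chromosomes (median 0.03). Other genes of chromosome 19 were lower too, with 99 of 829 called and a median of -0.32. ZNF177 (11.4 ± 0.41 and 0.80 ± 0.41 CPM) and ZNF492 (5.07 ± 1.80 and 0.41 ± 0.24 CPM) were among them, and ZNF467, on another chromosome, was higher (1.74 ± 0.56 and 33.9 ± 2.37 CPM).

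**Figure D5:**
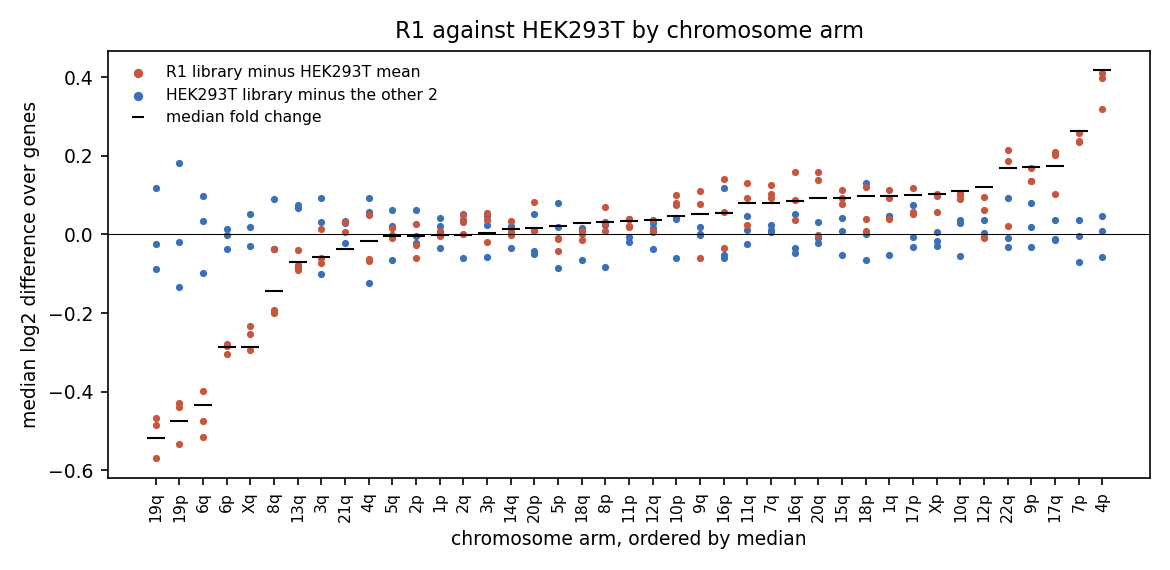
Median log2 difference over genes by chromosome arm (y axis), arms ordered by the median fold change (black bar), with 1 red point per R1 library relative to the HEK293T mean and 1 blue point per HEK293T library relative to the other 2. The R1 points of 19q, 19p and 6q lie between -0.40 and -0.57 and those of 4p between 0.32 and 0.41, apart from the HEK293T points of those arms.

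Chromosome 19 was lower along its length, with medians of -0.38 to -0.71 in each of its 6 bins of 10 Mb. On chromosomes X, 6 and 4 the difference varied along the chromosome, and the bounds of the stretches given here were chosen after seeing the values. On the X chromosome the 97 genes from 60 to 110 Mb had a median of -0.73, and 85 of them were below 0 and 30 (30.9%) called lower. The R1 libraries gave -0.76, -0.72 and -0.74 there. The 136 genes beyond 110 Mb had a median of -0.01 and the 162 genes of the short arm 0.10. The stretch holds the clustered BEX, TCEAL and ARMCX genes, of which 15 were tested, 9 were called lower and 0 higher. SLC7A3, DIAPH2, IGBP1 and RPS4X also lie in it. On chromosome 6 the 93 genes from 60 to 110 Mb had a median of -0.68 (24 lower), the 162 genes from 10 to 40 Mb -0.44 (26 lower) and the 59 genes from 40 to 50 Mb 0.08 (1 lower). Other bins of chromosome 6 were below 0 too, with medians of -0.31 from 0 to 10 Mb, -0.43 from 110 to 120 Mb and -0.41 from 130 to 140 Mb. EEF1A1 and RPS10 lie in these lower stretches. On chromosome 4 the first 10 Mb had a median of 0.56 over 56 genes, 10 of them called higher, and the rest of the chromosome -0.01. In -Met+Hcy medium, without R1 library 3 of that medium, the X stretch was at -0.70, the chromosome 6 stretch from 60 to 110 Mb at -0.69 and the first 10 Mb of chromosome 4 at 0.60. DNA copy number was not measured in these samples.

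The same pair of lines in -Met+Hcy medium gave separate libraries in which the genes called here could be looked up. R1 library 3 of that medium had counts in 13936 genes, against 16772 to 17065 in the other 5, so the look-up was made with and without it. Of the 1503 genes higher in R1 in +Met medium, 47.0% had every R1 library above every HEK293T library in -Met+Hcy medium, against 14.2% of all genes tested, and 20 had the reverse. Of the 829 lower genes, 58.6% had every R1 library below every HEK293T library, against 18.8% of all genes tested, and 2 had the reverse. Without R1 library 3 the shares were 83.9% and 77.7%, against 29.1% and 27.6% of all genes tested. GPC3 was at 51.3 and 1489 CPM in HEK293T and R1 in that medium, MAGEC2 at 0.95 and 59.3 CPM and MYC at 586 and 63.2 CPM.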

How the data were processed

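Gene expression was measured by RNA-seq in HEK293T and R1 cells kept for 12 h in either medium, with 3 libraries per line and medium. The authors quantified reads with kallisto 0.48.0 against GRCh38, summed the estimated counts per Ensembl gene and deposited them as whole numbers. The annotation release was not given in the sources used here. Transcript estimates divide reads among near-identical copies, which affects genes with paralogs or alternative haplotype entries. No column belonged to other samples.

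The 6 +Met libraries were fitted with edgeR 4.0.16 (R 4.3.3; quasi-likelihood test, TMM scaling, Benjamini-Hochberg adjustment, 4 residual degrees of freedom), leaving out genes with a summed count under 10. All adjusted p-values come from this fit over 16201 genes. SE was the log2 fold change divided by the square root of F. Bounds on folds used a floor of 3 counts per library and cover counting error only. Nothing in the labels says that replicates came from separate cultures, so the p-values measure the spread between these libraries, which may be technical. Total counts of 12664158 to 18408528 set the precision for low genes. Coordinates, lengths and GC content were from GENCODE 44 (92.7% of entries matched), and 1 entry per symbol was kept for lists. In simulated counts 94 of 100 genes changed by 1.5 on the log2 scale and 100 of 100 changed by 2.5 were called. Of 15790 unchanged genes 7 were called there. How often unchanged genes are called in the libraries themselves, which carry trends with length and GC content, was not tested.

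Genes were named by rule: the 12 largest fold changes in each direction among called genes with at least 5 CPM in one line and no overlap, the 8 switched genes of highest CPM in each direction, up to 4 called members per list with at least 2 CPM, a set of methionine cycle, PP2A and amino acid genes whatever their values, and the 5 largest differences in CPM in each direction. Genes linked to sex were left out, and some items that met the rule are not reported here. The members and lists were chosen with earlier results of these data known. Alternatives covered scaling (RLE, library totals), filters, DESeq2 1.42.0, glmTreat, robust spread, fits of 11 or 12 libraries, removal of trends with GC content or length (loess, span 0.3), the replicate number as a block and each library left out. Deviations of same-numbered libraries from their group means correlated at 0.0669, -0.47 and -0.516, so the numbers were not used as pairs.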

Additional observations from a re-analysis of the deposited data

Results flagged for a closer look

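VLDLR, H2BC5 and CCT6B had every R1 library above every HEK293T library in +Met medium and every R1 library below every HEK293T library in -Met+Hcy medium. The difference between the media was not tested. VLDLR, a lipoprotein receptor, had a log2 fold change of 1.444 in +Met medium (5.05 CPM in HEK293T and 13.8 CPM in R1) and -0.45 in -Met+Hcy medium (17.6 and 12.9 CPM). H2BC5, a histone H2B gene, had 1.148 (1.61 and 3.58 CPM) and -1.14 (12.0 and 5.43 CPM). CCT6B, a chaperonin subunit, had 1.302 (1.58 and 3.89 CPM) and -1.21 (18.7 and 8.06 CPM). In all 3 genes the level in HEK293T was higher in -Met+Hcy than in +Met medium.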

How the results depend on the processing

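Against 1503 genes higher and 829 lower, fitting all 12 libraries together gave 808 and 507, glmTreat 435 and 103, library totals alone 2617 and 372, and the adjusted p alone 2698 and 2167. Leaving out 1 library gave 1156 to 1814 higher and 602 to 1381 lower, with 1381 from the fit without R1 library 2. Counts under DESeq2, RLE, filterByExpr, no filter, robust spread, 1 entry per set of copies, 11 libraries and the removal of trends stayed within 1.5 times. The replicate block gave 1187 higher and 675 lower, and the same-numbered libraries did not deviate together. Of 52 switched-on entries 31 were found with all 12 libraries and 5 at a mean of 5 CPM, and leaving out 1 library gave 52 to 73. Of 15 switched-off entries 3 were found at 5 CPM, and leaving out 1 library gave 15 to 25. In -Met+Hcy medium 272 genes were higher and 219 lower, and without R1 library 3 of that medium 1482 and 1116. Of 226 called genes that met the naming rule, 94 were called under every alternative run and 0 turned direction. Of 56 counts of list members called, over 1.5 times fewer were called in 27 with all 12 libraries, in 53 with glmTreat, in 11 with library totals (more in 15), in 11 with the trends on GC content and length removed (more in 1), and in 11 with the replicate block. Direction turned for 5 genes, none of them called: with library totals CBS came to 0.29, CTH to 0.11, PPP2CA to 0.019 and LCMT1 to 0.093. CBS ranged from -0.15 to 0.036 and PPP2CB from -0.032 to 0.13 with 1 library left out, and PPP2CB was -0.010 with DESeq2, -0.0068 with the GC trend removed and -0.010 with RLE. Except where an alternative used fewer libraries or a stricter limit, the cause was not tested.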
